A study of Drosophila simulans and Drosophila kikkawai and Drosophila takahashii with 176 samples.

Results

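Accessory glands of *Drosophila simulans* males were compared between 2 strains, w501 and MD106. The set held every accessory gland library of this species, 5 of the 93 libraries of the series, which covers testes and accessory glands (AGs) of 11 *Drosophila* species. There were 2 libraries of w501 and 3 libraries of MD106, and all 15385 genes of the deposited table were considered. Both groups were adult males of mixed stages, with no transgene or treatment in the labels, and each library pooled RNA from the glands of many males, so a library measures a pool and not a fly. w501 is the white-eyed laboratory strain whose DNA was used for the *D. simulans* genome assembly, while MD106 is a line that traces to Madagascar. Reads of both strains were mapped to the w501 assembly, and for a gene that is lower in MD106, weaker expression cannot be told apart from sequence divergence that keeps MD106 reads from mapping. Each strain is 1 line, and differences between these lines are not differences between populations.

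The AG is a paired secretory organ of the male reproductive tract. Its main cells, and a smaller class of secondary cells, make most of the proteins that are passed to the female with the sperm, and in *D. melanogaster* these seminal fluid proteins raise egg laying, lower the female's readiness to mate again and help to store sperm. A gland of this kind puts much of its mRNA into few genes, and many seminal fluid genes change quickly in sequence and expression between related flies. The testis, which makes the sperm, lies beside the gland and is joined to it through the same duct system.

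Genes were measured by poly(A) RNA-seq in TPM, a gene's transcript abundance relative to all transcripts of its library. The identifiers carried no gene names, since 0 of 15385 matched either name table, so no role is given to any gene, and the tissue label could not be checked against named markers. In place of names, 3583 genes were marked as higher in the testis. Their lowest of 5 *D. simulans* testis libraries lay above their highest of 5 AG libraries, and their mean log2(TPM + 1) was at least 2 higher in the testis. The testis and AG tables were normalized separately, so the mark is a description. These 3583 genes together held 1.46% and 1.11% of the summed TPM in the w501 libraries, against 2.02%, 1.24% and 1.56% in the MD106 libraries. The mark itself requires low AG values, so small shares were built in and do not check the tissue or its purity.

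The 5 libraries did not fall cleanly by strain. w501 library 2 and MD106 library 3 came from the same sequencing runs and from the same dissector, and are called the shared-run libraries here. The other libraries came from other runs, with 1 dissector for w501 library 1 and another for MD106 libraries 1 and 2. The platform followed the same split. It was a HiSeq 2500 for the shared-run libraries, a 3000 for w501 library 1 and MD106 library 1, and a 4000 for MD106 library 2. Over the 8878 genes with at least 1 TPM in at least 2 libraries, Pearson's r of log2(TPM + 1) across genes was 0.965 between the w501 libraries and 0.971 between MD106 libraries 1 and 2. MD106 library 3 correlated at 0.871 and 0.887 with the other MD106 libraries, and at 0.916 with w501 library 2. It was therefore nearer to the w501 library from its own runs than to either library of its own strain. The dissection, the platform, the runs and the fly stock cannot be told apart as the source of its position.

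**Figure D1:**
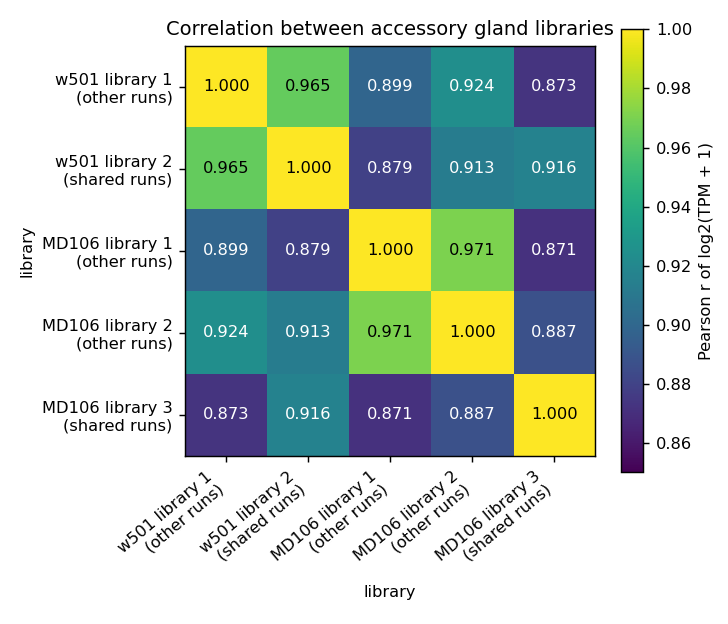
Pearson's r of log2(TPM + 1) over 8878 genes for every pair of the 5 AG libraries, with the libraries from the shared sequencing runs marked. MD106 library 3 reached 0.916 with w501 library 2 but 0.871 and 0.887 with MD106 libraries 1 and 2.

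In genes read in one strain but not in the other, MD106 library 3 also stood apart. From the other libraries alone, 31 genes were taken as present in MD106, with at least 1 TPM in MD106 libraries 1 and 2 and at most 0.1 TPM in both w501 libraries. MD106 library 3 had at most 0.1 TPM in 19 of these 31 genes, between these limits in 7, and at least 1 TPM in 5. Conversely, 23 genes had at least 1 TPM in both w501 libraries and at most 0.1 TPM in MD106 libraries 1 and 2, and MD106 library 3 had at most 0.1 TPM in 18 of them and at least 1 TPM in 0. At these limits the library thus lacked most genes that marked w501 against MD106, and also most that marked MD106 against w501. Many of these genes were of low level, with a median of 3.55 TPM where detected for the 31. Of the 9 of these that were over 5 TPM, MD106 library 3 had at most 0.1 TPM in 3 and at least 1 TPM in 4. Of the 6 over 5 TPM among the 23, it had at most 0.1 TPM in 5 and at least 1 TPM in 0. Genes listed at 0 numbered 2281 and 3579 in w501 libraries 1 and 2, against 1958, 2332 and 4113 in MD106 libraries 1 to 3, so both shared-run libraries had more zeros than the rest. Read depth is not held in TPM, and its part in these zeros was not tested. Because MD106 library 3 goes partly against its label, results are given with and without it.

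The strain difference was largest in a small group of genes that were close to silent in one strain. FBgn0195028 was the gene with the largest rise, at 375 and 286 TPM in the w501 libraries, against 0.317, 0.303 and 0.370 TPM in the MD106 libraries. Its log2 difference, w501 minus MD106 on the log2(TPM + 1) scale, was 7.95 ± 0.24 (SE, n = 2 and 3), with an adjusted p of 0.00071 in limma. Each w501 library was far above every MD106 library, and the 3 MD106 libraries lay close together. In the 5 testis libraries of both strains it ran from 0.138 to 33.1 TPM, with a mean of 13.6 TPM.

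FBgn0186533 had 59.5 and 25.9 TPM in the w501 libraries and 0.0464, 0 and 0 TPM in the MD106 libraries. The log2 difference was 5.31 ± 0.39 (SE, limma adjusted p = 0.011), and the w501 libraries differed from each other more than for FBgn0195028. In the opposite direction, FBgn0189751 had 0.902 and 0.125 TPM in the w501 libraries and 339, 211 and 568 TPM in the MD106 libraries. It fell by 7.88 ± 0.49 on the log2 scale (SE, limma adjusted p = 0.0073), the largest fall of any called gene. FBgn0268172 had 0.461 and 2.498 TPM in the w501 libraries, against 178, 203 and 94.97 TPM in the MD106 libraries, and fell by 6.07 ± 0.51 on the log2 scale (SE, limma adjusted p = 0.0155). For both genes MD106 library 3 sat with its own strain, highest of all for FBgn0189751 and lowest of the MD106 libraries for FBgn0268172. Over the 5 testis libraries of both strains these genes averaged 5.98 and 0.390 TPM and reached at most 13.4 and 1.69 TPM. These values were far under their AG level in MD106, in tables that were normalized separately.

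Across all 8878 genes, 28 passed an adjusted p of 0.05, which was 0.315% of the genes tested. Of these, 18 were higher (0.203%) and 10 lower (0.113%) in w501. All 28 differed by at least 2-fold, and in each the w501 libraries did not overlap the MD106 libraries. Such separation was common among all genes, at 10.7% higher and 27.8% lower in w501, so it does not mark the called genes. The 18 genes that rose differed by 2.42 to 7.95 on the log2 scale, with a median of 3.70, and their mean level in w501 ran from 6.33 to 331 TPM with a median of 21.1 TPM. In 10 of the 18, every MD106 library was under 1 TPM. The 10 genes that fell differed by −2.55 to −7.88, with a median of −4.52, and their mean level in MD106 ran from 6.87 to 4265 TPM with a median of 59.4 TPM. In 5 of these 10, both w501 libraries were under 1 TPM, and in 1 both were at 0. The called genes were thus mostly of modest level in the strain where they were higher and often under 1 TPM in the other.

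**Figure D2:**
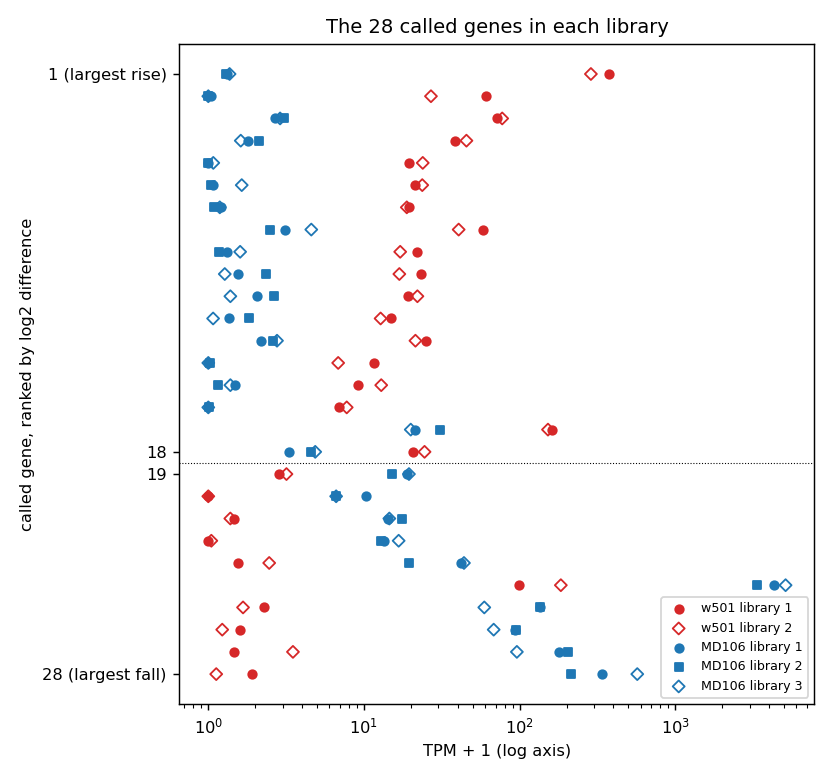
TPM + 1 on a log axis in each of the 5 libraries for the 28 called genes, ranked by their log2 difference, with w501 in red, MD106 in blue and the shared-run libraries as open diamonds. The 18 genes above the dotted line were higher in w501 and the 10 under it were lower, and the largest rise and fall were 7.95 and −7.88.

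The called gene of highest level stood out from this pattern. It had 98.3 and 183 TPM in the w501 libraries, against 4332, 3357 and 5106 TPM in the MD106 libraries, a log2 difference of −4.96 (limma adjusted p = 0.014). It was the 1 called gene among the 100 genes of highest mean level. It was singled out after its values were seen, and has no name here.

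The number of called genes varied widely when single libraries were left out. Without w501 library 1 or without w501 library 2, limma called 0 genes, with 981 and 931 genes at an unadjusted p under 0.05, against 1539 with all libraries. These fits hold 1 w501 library, which is assumed to vary like the MD106 libraries. The parts of this assumed spread, of the number of libraries and of the library left out were not tested. Without MD106 library 1 or 2 it called 15 and 5 genes, and without MD106 library 3 it called 561 (180 higher and 381 lower in w501, 6.32% of genes tested). With the shared sequencing runs as a block in the model it called 245, 117 higher and 128 lower, or 2.76%. That block also separates the dissector and the platform of the shared-run libraries from those of the rest. MD106 libraries 1 and 2 had a dissector who handled no w501 library, so strain and dissector cannot be told apart in the 561. All 28 genes were among the 561 and among the 245. All 28 also kept their direction in each alternative that tested them, although each of the 4 genes given by identifier missed the threshold when either w501 library was left out, with adjusted p values of 0.081 to 0.39.

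Over all genes the median log2 difference was −0.27, so the typical gene was slightly lower in w501 on the deposited scale. The shift was −0.34 with each library rescaled to the same total, and −0.46 or −0.07 without w501 library 1 or 2, so its size depended on scaling and on single libraries. Centring each library on its own median sets the shift near 0 by construction (0.05), and limma then called 43 genes, 33 higher and 10 lower in w501, against 18 and 10 on the deposited scale. Of the 28 genes, 25 were still called. Small differences of a given sign are therefore not read as changes here, while the differences of the called genes were many times larger than the shift.

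**Figure D3:**
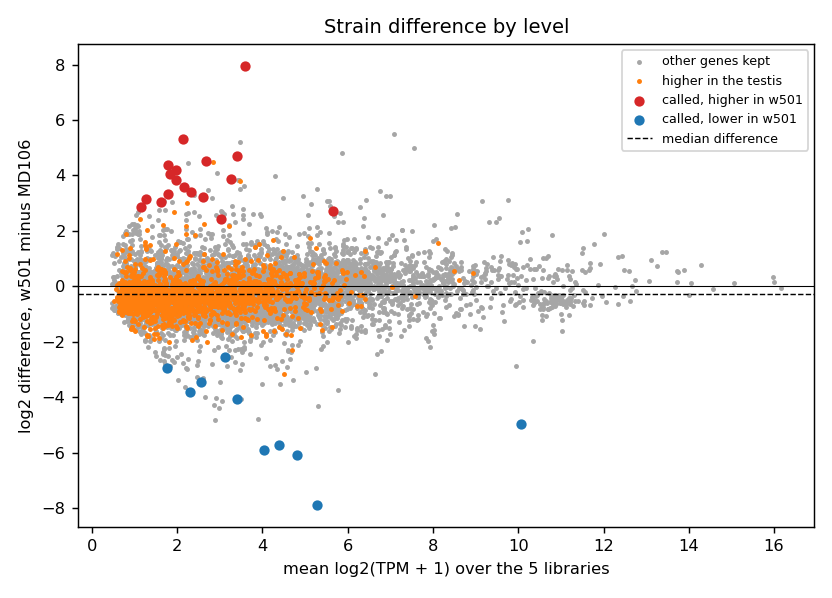
The log2 difference, w501 minus MD106, against mean log2(TPM + 1) over the 5 libraries for 8878 genes, with called genes in red and blue, genes higher in the testis in orange and the median of −0.27 as a dashed line. Of the 28 called genes, 14 had a mean of 5 to 20 TPM, and 1 of the 198 genes above 1000 TPM was called.

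The shared runs allowed the strains to be compared in separate sets of libraries, w501 library 2 against MD106 library 3 in one, and w501 library 1 against the mean of MD106 libraries 1 and 2 in the other. These sets have no library in common. In the second set the dissector of w501 library 1 was not that of MD106 libraries 1 and 2. Strain and dissector cannot be told apart there, and MD106 library 2 also had another platform. Over all 8878 genes the differences had the same sign in 5734, or 64.6%. Among the 54 genes called from the other runs alone (19 higher and 35 lower in w501), the shared-run pair, which had no part in the choice, showed the same sign in 47. It did so in 18 of the 19 that were higher in w501 and in 29 of the 35 that were lower. With only 1 w501 library in that fit, its spread was assumed to be that of the MD106 libraries.

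Agreement was closer for higher than for lower genes at each size examined. Of genes at least 3 higher on the log2 scale in w501 in the other runs, 52 of 54 were also higher in the shared-run pair, with a median of 2.64. Of genes at least 3 lower, 51 of 64 were also lower, with a median of −1.42 in the shared-run pair against −3.84 in the runs that chose them. In 11 of the 64 the shared-run pair had the opposite sign. All these genes were chosen on their difference in the other runs, and no test of the asymmetry was made.

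Differences that were large in both sets had the same direction. In both sets 22 genes were at least 3 higher and 15 at least 3 lower in w501, and 0 were at least 3 apart in opposite directions. At a limit of 1 the counts were 299 higher, 373 lower and 65 opposite, so agreement fell as smaller differences were admitted.

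**Figure D4:**
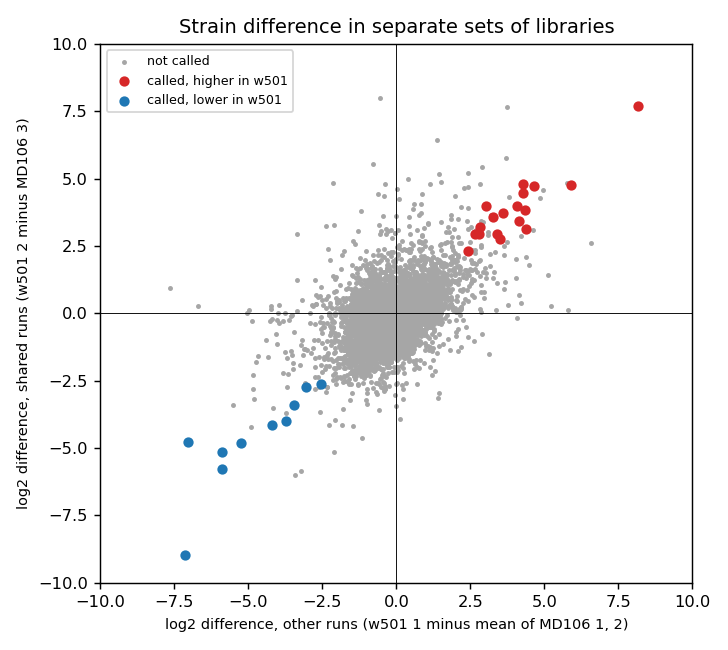
The log2 difference, w501 minus MD106, in the shared-run pair against that in the other runs for 8878 genes, with called genes in red and blue. The called genes lie along the diagonal, which their choice from all 5 libraries made likely. Some genes at −3 and below in the other runs, picked on that axis alone, stay near 0 in the shared-run pair. Of all 64 genes so picked, 51 were also lower in that pair, with a median of −1.42 for the 64.

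The same contrast can be read from the position of each library when it was left out. Among the 100 genes of smallest p fitted without it, w501 library 1 lay nearer to its own strain in 94, w501 library 2 in 89, MD106 library 1 in 97 and MD106 library 2 in 86. For MD106 library 3 the number was 45. Of the 561 genes called without this library, its level was nearer to the other MD106 libraries in 288, in 122 of the 180 genes higher in w501 and in 166 of the 381 lower. Over all 8878 genes, the share nearer to the library's own strain was 50.1% and 60.5% for w501 libraries 1 and 2, and 70.0%, 62.1% and 52.4% for MD106 libraries 1 to 3. MD106 library 3 thus lay with its label in most of the called genes higher in w501 and away from it in most of those lower.

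Of the 50 genes of highest level 0 were called between strains, and with 0.315% called over all genes a set of this size tells nothing about abundant genes in particular. The 10 genes of highest mean level took 26.6% and 39.1% of summed TPM in the w501 libraries, and 27.0%, 36.5% and 27.9% in the MD106 libraries. The gene at the top had 57395 and 89492 TPM in the w501 libraries, and 58484, 140248 and 50348 TPM in the MD106 libraries, so its libraries overlapped fully. The 10 genes differed by −0.32 to 0.76 on the log2 scale, 7 of them above 0 and 3 below, and none was called (smallest limma adjusted p = 0.42). Of these 10, 1 higher and 1 lower gene had libraries that did not overlap, while 10.7% and 27.8% of all genes did so in these directions.

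The gene at rank 6 had the largest of these differences, with 28654 and 26225 TPM in the w501 libraries, against 16609, 19659 and 12885 TPM in the MD106 libraries. Every w501 library was above every MD106 library, and its adjusted p was that smallest value of 0.42. The genes at ranks 4 and 7 kept a ratio of 2.01 in each of the 5 libraries. Genes with so constant a ratio may share reads through a similar copy or an overlapping gene model, and the levels of this pair are uncertain. Among the first 50 genes 33 were above 0 and 17 below (smallest adjusted p = 0.29, limma). This lean rested on MD106 library 3. The median log2 difference was 0.14, 0.29 and 0.29 in the first 10, 20 and 50 genes with all libraries, and −0.18, −0.05 and −0.04 without that library.

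Differences between libraries of 1 strain were large among these genes. MD106 library 3 was below the mean of MD106 libraries 1 and 2 in 9 of the 10 genes of highest level and in 18 of the first 20, with a median of −0.73 on the log2 scale in the 20. The gene at rank 12 had 28065 and 13002 TPM in the w501 libraries, and 13509, 18381 and 2065 TPM in the MD106 libraries. The low value came from MD106 library 3 alone. Of the first 100 genes, MD106 library 3 was the lowest of the 5 libraries in 42 and the highest in 34, so that its profile differed in both directions. For 14 of the 8878 genes it was at least 8-fold below each of the other 4 libraries, and for 3 it was at least 8-fold above (in TPM + 1), against 0 or 1 gene in either direction for any other library.

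By level, the calls were spread over most of the range, with a lower share of genes called under 5 TPM. Genes with a mean of 5 to 20 TPM gave 14 of the 28 calls among 3210 genes (0.436%), those of 20 to 100 TPM gave 7 among 1727 (0.405%), and those of 1 to 5 TPM gave 4 among 2832 (0.141%). Above 100 TPM there were 2 calls among 566 genes up to 1000 TPM (0.353%) and 1 among the 198 genes above (0.505%). Under 1 TPM there were 0 among 345 genes. The median difference did not follow level in 1 direction. It was −0.29 in genes under 1 TPM, −0.35 at 1 to 5 TPM, −0.30 at 5 to 20 TPM, −0.09 at 20 to 100 TPM, 0.17 at 100 to 1000 TPM and −0.31 above 1000 TPM. The share of genes below 0 was highest at 1 to 5 TPM, 77.8%, and lowest at 100 to 1000 TPM, 42.9%.

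Genes higher in the testis made up 1787 of the 8878 genes tested, or 20.1%. Of these, 1411 (78.96%) were lower in w501, with a median log2 difference of −0.35, against 4687 of the 7091 other genes (66.1%) with a median of −0.25. Without MD106 library 3 the medians were −0.59 and −0.25. None of the 1787 was called, against 28 of the other genes, with 0.315% called over all genes. The mark keeps out genes whose level in either strain's AG reached their lowest testis level, so it limits large strain differences. Counts of calls among marked genes, here and in other fits, are therefore not read as a result about testis genes. In limma 201 of the 1787 (11.2%) had an unadjusted p under 0.05, against 18.9% of the other genes. Their median level was 3.07 and 2.02 TPM in the w501 libraries, against 5.74, 3.61 and 2.38 TPM in the MD106 libraries, while the other genes had medians of 9.57 and 7.35 TPM in w501, and of 11.2, 10.6 and 9.85 TPM in MD106. Both shared-run libraries were the lowest of their strains.

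The lower level of testis genes in w501 was not seen in the shared-run pair. With w501 library 2 kept and MD106 library 3 left out, the median difference of these genes was −0.59. In the shared-run pair their median difference was −0.01, against −0.32 for the other genes, while in the other runs it was −0.36, against −0.09. The sign of the gap between testis genes and other genes was thus opposite in the 2 sets, which is a description and was not tested. Without MD106 library 3, 76 of the 1787 genes were called, 15 higher and 61 lower in w501, or 4.25%, against 6.84% of the other genes. With the sequencing-run block 28 were called, 14 in each direction, or 1.57% against 3.06% of the other genes. The summed TPM of the 3583 testis genes was 17595 and 13309 in w501, against 22143, 16777 and 14861 in MD106. This difference was within the spread between libraries (two-sided exact permutation test, p = 0.60, with 0.20 the smallest p that 2 against 3 libraries allow). How much carried-over testis RNA contributed to any difference was not tested.

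**Figure D5:**
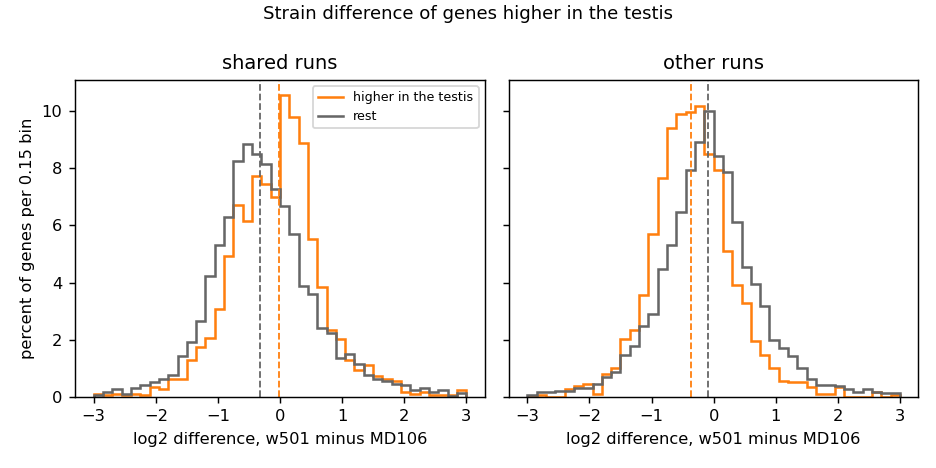
Distribution of the log2 difference, w501 minus MD106, for the 1787 genes higher in the testis and the 7091 other genes, in the shared-run pair and in the other runs, with medians as dashed lines. The testis genes lie to the right of the others in the shared-run pair (medians −0.01 and −0.32) and to the left in the other runs (−0.36 and −0.09).

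Few genes were at background in every library of 1 strain and read in every library of the other. With background as at most 0.1 TPM and detection as at least 1 TPM, 18 genes were detected in w501 only and 5 in MD106 only, of 15385 genes listed. Detection was asked of 2 libraries for w501 but of 3 for MD106, so these counts are not on equal terms. Of the 18, 4 were listed at 0 in all 3 MD106 libraries, 4 were called, and 1 was higher in the testis. Their highest value was 59.5 TPM, that of FBgn0186533, and the median of their mean levels in w501 was 3.41 TPM. Of the 5 genes, 3 were listed at 0 in both w501 libraries, 2 were called and 0 were higher in the testis, and their highest value was 53.3 TPM. All 23 had an unadjusted p under 0.05 in limma, which their choice made likely.

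The excess of genes detected in w501 only depended on MD106 library 3. Without it the counts were 23 in w501 and 31 in MD106, and without both shared-run libraries they were 37 and 49. The larger count was then in MD106 in both cases. Without w501 library 1 they were 19 and 19. With background set at 0.5 TPM the counts were 53 in w501 and 41 in MD106. A larger number of genes seen only in the strain of the assembly was therefore not a stable feature of these libraries.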

How the data were processed

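RNA of dissected accessory glands was sequenced as directional poly(A) paired-end libraries. Per the submitters' processing notes and the study's methods, reads were trimmed with Trimmomatic, aligned with STAR 2.5.3 to the *D. simulans* w501 assembly and quantified with StringTie (1.3.4 in the notes, while the study's methods name a later version). The deposited signal values are the authors' TPM per gene, with sequencing runs of 1 library combined. Library totals ran from 950927 to 1351176 and not 1000000, so the values were recorded as signal. How transcripts were summed to genes is not given in the sources used here, and read depth is unknown, so that no counting interval can be given. TPM is compositional, and a change in a few abundant genes moves all others.

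Groups came from the sample labels, which give the strain of each library. The labels do not say that libraries of 1 strain came from separate cultures, so p-values measure only the spread between libraries. The 8878 genes with at least 1 TPM in at least 2 of 5 libraries were fitted on log2(TPM + 1) with limma 3.58.1 (R 4.3.3, eBayes with an intensity trend), w501 minus MD106, with Benjamini-Hochberg adjustment over these genes. A pseudocount of 1 understates the change of low genes. Alternatives were a pseudocount of 0.1, other filters and scalings, other variance models, a sequencing-run block and the omission of libraries. In deviations from strain means, the shared-run libraries correlated at 0.47 across genes. w501 library 1 correlated at 0.43 and 0.32 with MD106 libraries 1 and 2, with which it is not marked as sharing runs. With 2 w501 libraries their deviations mirror each other, so the 0.47 does not check a pairing. The runs were taken as a pairing because the labels give the shared-run libraries the same runs. Summaries used Python 3.11.15, numpy 2.4.6, pandas 2.3.3 and scipy 1.17.1.

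Genes to be given by identifier were the 2 with the largest rise and the 2 with the largest fall among called genes, the rule for identifiers without names. None of 15385 identifiers matched a name table, so 15 gene and marker lists (seminal fluid, secondary cell, duct, testis, muscle, fat body, hemocyte, neuron, gut and others) gave 0 matches and no result, and no sequence could be shown. The groups, lists and rules were chosen with earlier results of these data known.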

Additional observations from a re-analysis of the deposited data

How the results depend on the processing

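The total of 28 calls (18 higher, 10 lower in w501) stayed within 1.5 times in some settings. It was 21 with a pseudocount of 0.1 (10 higher and 11 lower) and 40 at a mean of at least 5 TPM (20 each way). With no variance trend it was 28, and with a robust variance 27. The split moved further, in higher genes at the pseudocount of 0.1 and in lower genes at a mean of 5 TPM. There were 3 with no filter (2 and 1), 52 with each library rescaled to a total of 1000000 (32 and 20), 43 with libraries centred (33 and 10), 245 with the sequencing-run replicate block (117 and 128) and 54 without both shared-run libraries (19 and 35). Leaving out 1 library gave 0 to 561 calls, 0 to 180 higher and 0 to 381 lower. Without MD106 library 3 and with libraries centred, chosen after seeing the data, there were 632 (406 and 226), of which 620 were at least 2-fold. All calls of the other settings were at least 2-fold. Called genes that were higher in the testis numbered 0 on the deposited scale, 2 at a mean of 5 TPM, 3 rescaled, 2 centred, 28 with the block, 2 without both shared-run libraries, 0 to 76 with 1 library left out, and 81 in the added setting. The comparison of their median within each set of runs was also chosen after seeing the data. Genes detected in w501 only and in MD106 only numbered 18 and 5, and were 53 and 41 at a background of 0.5 TPM, 4 and 3 at 0, 5 and 3 at a detection level of 5 TPM, 37 and 49 without both shared-run libraries, and 19 to 27 and 7 to 31 with 1 library left out. FBgn0186533, FBgn0189751 and FBgn0268172 missed the threshold with no filter (adjusted p = 0.072 in limma), and FBgn0186533 and FBgn0268172 also without MD106 library 2 (0.056 and 0.061). None of the 4 genes given by identifier changed direction. Alternatives for the gene lists were not run, since no list could be matched. Read depth is not held in these values, which leaves zeros in MD106 library 3 without a limit. Strain, dissector, platform and run overlap in part, and without MD106 library 3 no dissector handled both strains.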
